A study of Mus musculus with 13 samples.

Results

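The receptor for leukaemia inhibitory factor (LIF) and the STAT3 branch below it were followed in mouse E14 embryonic stem cells through 6 genes, Lifr, Il6st, Stat3, Socs3, Jak1 and Ptpn11. The genes were taken by symbol from the deposited count table, which lists 24470 genes, and all 6 were found there. The rule that picks them uses the symbol alone, but the 6 were chosen with earlier results of these data known. The study tested a low-input protocol in which the same cells give an ATAC library, a map of DNA open to the transposase Tn5, and an mRNA library. E14 is a line of 129/Ola background, and all groups were kept in serum-containing medium with LIF, with no gene change or treatment in the labels, so that none lacks the signal. Experiment 1 gave libraries of both kinds from 10000 and 20000 cells, and experiment 2, done on another day, from 5000, 10000 and 20000 cells. Omni-ATAC, an established ATAC protocol used as the benchmark, was done once each with 5000, 10000 and 50000 cells and has no mRNA library.

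LIF is the cytokine that holds mouse embryonic stem cells in self-renewal. It joins LIFR (Lifr) to the shared receptor chain gp130 (Il6st), and the kinase JAK1 bound to these chains phosphorylates them and the transcription factor STAT3, which then forms dimers, enters the nucleus and switches on genes that maintain the undifferentiated state. SOCS3 is itself a product of STAT3 activity and shuts the receptor off by blocking gp130 and its kinases, whereas SHP2 (Ptpn11), a phosphatase that docks on the same part of gp130, passes the signal to the RAS and ERK cascade.

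The 5 mRNA libraries held 13727122 to 20426252 counts, so that 3 counts, the most that a count of 0 allows, correspond to 0.147 to 0.219 CPM, counts scaled to the library's total. The depth of the ATAC libraries is unknown, and their lists held 9097 to 95457 peaks. All 6 listed markers of embryonic stem cells (Pou5f1, Sox2, Nanog, Zfp42, Esrrb and Tdgf1) were at or above 10 CPM on average, and they summed to 1372 to 1549 CPM per library. Between experiments 1 of them rose (Zfp42, log2 fold change 0.38, adjusted p = 0.0282, edgeR), where 12.5% of all genes tested passed, 5.75% higher and 6.76% lower in experiment 2. The 10 fibroblast or feeder markers summed to 37.6 and 40.0 CPM in experiment 1 and to 12.4 to 15.1 CPM in experiment 2. Of these, 5 were tested and 1 fell, Thy1, the largest single part of the sum in every library. Thy1 was at 29.2 and 33.9 CPM in experiment 1 and at 9.78, 6.77 and 7.05 CPM in experiment 2. Of the other tested markers, none called, Col5a1 (log2 fold change 0.07) and Pdgfrb (1.28) were higher in experiment 2, and Col1a1 (-0.99) and Fbn1 (-0.45) lower. Col3a1 and Lum were at 0 in all 5 libraries. The 6 primitive endoderm markers summed to 14.3 and 10.4 CPM in experiment 1 and to 1.91 to 2.74 CPM in experiment 2, and 2 of the 3 tested fell (Gata6 and Dab2). Primed epiblast markers (29.9 to 43.6 CPM) and blood cell markers (8.06 to 12.6 CPM) overlapped between the experiments, and Lyz2 of the latter list was at 0 throughout.

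The upstream promoter sequences of 4 genes are shown because they carry the features that set the members apart from each other: the only match to the STAT consensus (Socs3), a full cyclic AMP response element letter for letter (Jak1 and Ptpn11), and the most GC-rich window (Lifr). Each line holds the 250 bases before the RefSeq start, GRCm38.p6, 5′ to 3′ on the gene's own strand, and capitals mark the named match.
Socs3, chr11:117969367-117969616, minus strand, capitals TTCNNNGAA: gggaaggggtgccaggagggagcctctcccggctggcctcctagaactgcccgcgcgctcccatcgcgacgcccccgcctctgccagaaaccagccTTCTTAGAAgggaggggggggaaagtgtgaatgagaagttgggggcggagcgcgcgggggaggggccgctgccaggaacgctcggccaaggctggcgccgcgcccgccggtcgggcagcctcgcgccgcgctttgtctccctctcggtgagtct
Jak1, chr4:101265224-101265473, minus strand, capitals TGACGTCA: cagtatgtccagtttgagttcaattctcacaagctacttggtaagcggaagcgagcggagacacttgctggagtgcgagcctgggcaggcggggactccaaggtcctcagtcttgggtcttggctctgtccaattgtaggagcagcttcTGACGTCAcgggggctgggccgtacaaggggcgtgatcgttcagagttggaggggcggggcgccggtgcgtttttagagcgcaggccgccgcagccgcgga
Ptpn11, chr5:121191398-121191647, minus strand, capitals TGACGTCA: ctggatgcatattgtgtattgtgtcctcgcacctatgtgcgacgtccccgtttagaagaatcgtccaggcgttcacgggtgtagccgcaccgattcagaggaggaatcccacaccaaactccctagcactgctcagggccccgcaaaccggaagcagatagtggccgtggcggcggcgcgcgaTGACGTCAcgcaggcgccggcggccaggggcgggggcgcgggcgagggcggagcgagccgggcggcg
Lifr, chr15:7129322-7129571, plus strand, capitals GGGCGG: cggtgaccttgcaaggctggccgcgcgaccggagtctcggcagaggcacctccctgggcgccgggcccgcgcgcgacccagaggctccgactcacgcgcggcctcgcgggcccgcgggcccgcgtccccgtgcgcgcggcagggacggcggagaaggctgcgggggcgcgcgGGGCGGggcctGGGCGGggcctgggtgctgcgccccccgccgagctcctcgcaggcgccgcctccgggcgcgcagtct
Both strands of the windows of all 6 genes were searched for 4 motifs, and no match overlapped another. The STAT consensus TTCNNNGAA was found in 1 of 6, as TTCTTAGAA in Socs3 from 154 to 146 bases before its start. Among 32851 promoter windows of the same length 7.02% held it, and among the 6675 windows of genes averaging 10 CPM or more 5.78% did. TGACGTCA was found in 2 of 6, at 101 bases before the RefSeq start in Jak1 and at 67 bases in Ptpn11, against 1.55% of all windows and 3% of those of the expressed genes. The RefSeq start of Jak1 lies 59 bp inside the gene from the 5′ end used below for its peaks. CCAAT was found in 3 of 6 (Il6st, Stat3 and Jak1), against 33.85% of all windows, and GGGCGG, the GC box, in 6 of 6, against 32.74% of all windows and 60.75% of those of the expressed genes. The Lifr window was 82.4% G or C, where the median of all windows was 52.4%. A match describes letters only and does not show that a factor binds there. In the lists of 68 related genes below, TTCNNNGAA was found upstream of Gab1, Akt2 and Sgk1 only. Beside the 7.02% of all windows, so few matches are not a result about these lists.

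All 6 genes were detected in every mRNA library. Between experiments, 1 of the 6 rose in experiment 2 (Socs3), none fell, and 5 did not pass the test, where 12.5% of all genes tested passed. Between 10000 and 20000 cells none of the 6 passed, and 0% of all genes did. Counts could not be set per transcript length, because exon lengths were not used here, so levels are compared between libraries and not between genes. In a bulk library, fewer cells expressing a gene and less of its RNA per cell cannot be told apart.

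**Figure D1:**
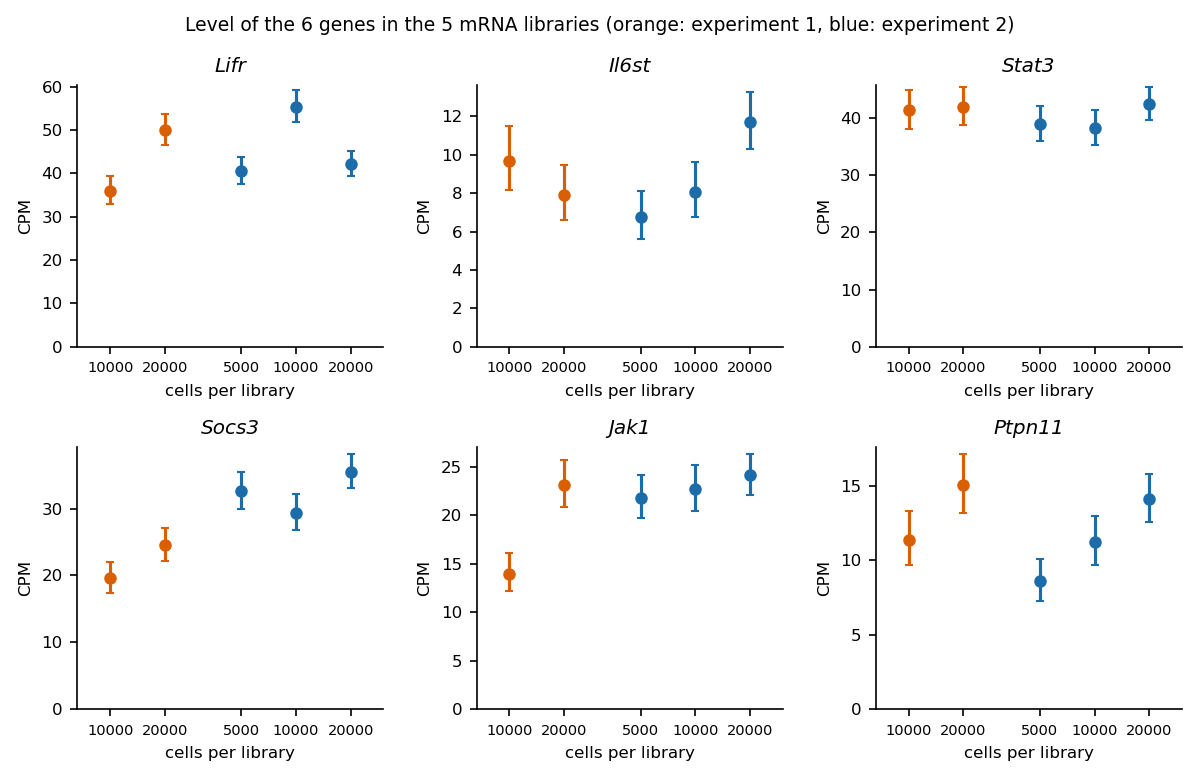
Level of each gene (CPM, linear axis from 0) in the 5 mRNA libraries by cells per library, with 95% Wilson intervals for counting error only. All 3 Socs3 values of experiment 2 (blue) lie above both of experiment 1 (orange), Jak1 is low in 1 library (14.0 CPM), and Stat3 spans 38.2 to 42.4 CPM.

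Of the receptor chains, Lifr (gene ID 16880, mm10 chr15:7129572-7197489, plus strand) was at 36.1 CPM in the library from 10000 cells of experiment 1 and at 50.1 CPM in that from 20000 cells. In experiment 2 it was at 40.6, 55.4 and 42.2 CPM in the libraries from 5000, 10000 and 20000 cells. The lowest and the highest library were both made from 10000 cells, and the experiments overlapped. The counting intervals of the lower 3 libraries overlapped from neighbour to neighbour, as did those of the upper 2 (46.6 to 53.8 and 51.8 to 59.2 CPM), with a gap between these sets. The mean was 44.9 ± 7.76 CPM (SD, n = 5). The log2 fold change of experiment 2 against 1 was 0.18 ± 0.17 (SE; adjusted p = 0.574, edgeR's quasi-likelihood test with Benjamini-Hochberg adjustment). At 10000 cells alone the log2 ratio was 0.62 and at 20000 cells -0.25. The 310 genes of chromosome 15 averaging 10 CPM or more had a median log2 fold change of -0.25, and 21.3% of them were higher in experiment 2, whereas the median over all 6485 such genes was 0.01. The part of the chromosome in the value of Lifr was not tested.

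Il6st (gene ID 16195, chr13:112464070-112506860, plus strand) was at 9.69 and 7.90 CPM in the libraries of experiment 1 from 10000 and 20000 cells, and at 6.74, 8.06 and 11.7 CPM in those of experiment 2 from 5000, 10000 and 20000 cells. Experiment 2 held both the lowest and the highest value, and each library's counting interval overlapped that of the next in order, but those of the lowest (5.61 to 8.10 CPM) and the highest (10.3 to 13.3 CPM) did not overlap. The mean was 8.82 ± 1.92 CPM (SD, n = 5), from 113 to 239 counts per library. The log2 fold change between experiments was 0.17 ± 0.27 (SE; adjusted p = 0.749, edgeR's quasi-likelihood test), an error larger than the difference itself.

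Jak1 (gene ID 16451, chr4:101151974-101265282, minus strand), the receptor-bound kinase, was at 14.0 CPM in the library from 10000 cells of experiment 1 and at 23.2 CPM in that from 20000 cells. In experiment 2 it was at 21.8, 22.7 and 24.1 CPM. A single library was low: its counting interval of 12.1 to 16.1 CPM did not reach the next value's interval of 19.7 to 24.2 CPM, while the other 4 overlapped. The log2 fold change between experiments was 0.33 ± 0.21 (SE; adjusted p = 0.348, edgeR's quasi-likelihood test). Without the experiment 1 library from 10000 cells it was 0.02, and without that from 20000 cells, which leaves the low library alone in its group, it was 0.76 with an adjusted p of 0.0252. Jak1 overlaps Raver2 in the count table, and whether counting used strand is not given in the sources used here, so reads in the shared stretch are uncertain.

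Stat3 (gene ID 20848, chr11:100886806-100939540, minus strand), the transcription factor of the pathway, was at 41.3 and 41.9 CPM in the libraries of experiment 1 from 10000 and 20000 cells. In experiment 2 it was at 38.9, 38.2 and 42.4 CPM in the libraries from 5000, 10000 and 20000 cells. The experiments overlapped, and the highest library was 1.11 times the lowest. Its coefficient of variation over the 5 libraries was 4.59%, and those of the other 5 genes ran from 17.3% to 22.5%. Among the 6485 genes averaging 10 CPM or more the median coefficient was 15.0%, with quartiles of 10.4% and 20.8%. The log2 fold change between experiments was -0.04 ± 0.15 (SE; adjusted p = 0.907, edgeR's quasi-likelihood test). RefSeq places the long noncoding RNA Gm46295 across part of the gene.

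Socs3 (gene ID 12702, chr11:117966079-117969366, minus strand), the feedback inhibitor, was at 19.6 and 24.5 CPM in experiment 1 from 10000 and 20000 cells. In experiment 2 it was at 32.6, 29.3 and 35.5 CPM from 5000, 10000 and 20000 cells. All 3 libraries of experiment 2 lay above both of experiment 1, including the library from 5000 cells, which was not in the fit. That library belongs to the same experiment 2. The share of all genes whose experiments separate in this way is given neither here nor for the genes below. The mean over the libraries from 10000 and 20000 cells was 22.0 ± 3.46 CPM in experiment 1 and 32.4 ± 4.38 CPM in experiment 2 (SD, n = 2 each), and the log2 ratio of experiment 2 over experiment 1 was 0.58 at 10000 cells and 0.54 at 20000 cells. Its log2 fold change was 0.56 ± 0.18 (SE; adjusted p = 0.0445, edgeR's quasi-likelihood test with Benjamini-Hochberg adjustment), and it ranked 1470 by p among the 12523 genes tested. The call lies near the threshold of 0.05: with library sizes alone the adjusted p was 0.0551 and with DESeq2 0.0764, at nearly the same fold change. Without the experiment 1 library from 10000 cells the fold change was 0.41 (adjusted p = 0.318, edgeR), without the experiment 2 library from 10000 cells 0.69 (adjusted p = 0.0659), without that from 20000 cells 0.43 (adjusted p = 0.316), and only without the experiment 1 library from 20000 cells did the call hold (0.75, adjusted p = 0.0155). The sum of the primitive endoderm markers and, of the tested fibroblast markers, Thy1 alone differed between the same experiments. Their part in the value of Socs3 was not tested.

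Ptpn11 (gene ID 19247, chr5:121130533-121191397, minus strand), which encodes SHP2, was at 11.4 and 15.1 CPM in experiment 1 from 10000 and 20000 cells, and at 8.59, 11.2 and 14.1 CPM in experiment 2 from 5000, 10000 and 20000 cells. In both experiments the library from 20000 cells was above that from 10000 cells, and the library from 5000 cells was the lowest. Neighbours in this order overlapped in their counting intervals, but the lowest (7.30 to 10.1 CPM) and the highest (13.2 to 17.2 CPM) did not. The log2 fold change between experiments was -0.06 ± 0.23 (SE; adjusted p = 0.917, edgeR's quasi-likelihood test).

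In the comparison of the experiments 1567 of 12523 genes passed (12.5%), 720 of them higher in experiment 2 (5.75%) and 847 lower (6.76%), with a biological coefficient of variation of 17.1%. The count was 1018 without the experiment 1 library from 10000 cells, 803 without the experiment 2 library from 10000 cells and 869 without that from 20000 cells. A single member of 6 against this background is not a result about the group. The fold changes of 4 of the 6 were positive, with a median of 0.18 where that of all genes tested was 0.001. Nothing says whether libraries of an experiment came from separate cultures, so the p-values measure the spread between these libraries, which may be technical.

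**Figure D2:**
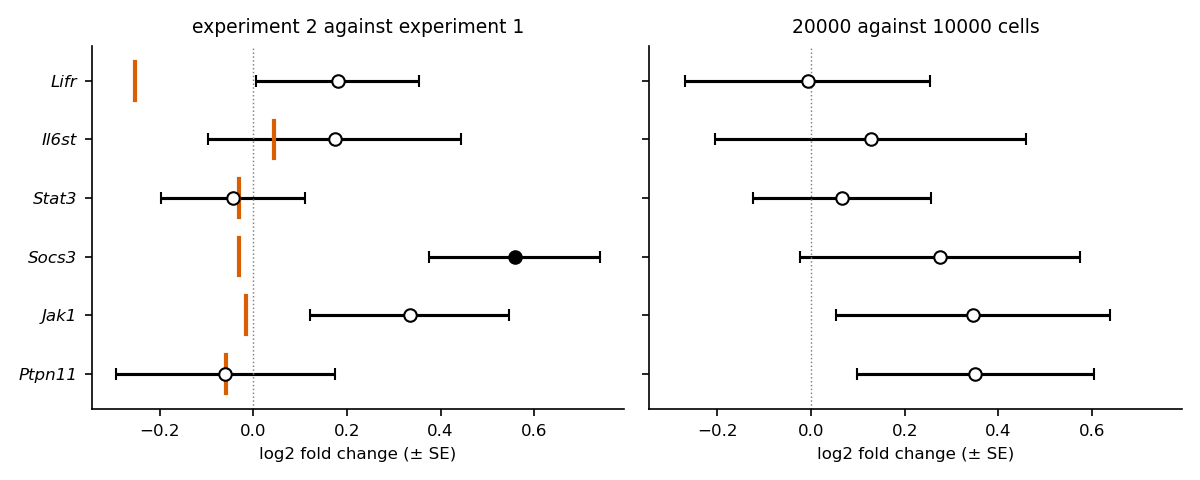
Log2 fold change ± SE of each gene between experiments (left) and between cell numbers (right), from edgeR, with a filled point for an adjusted p under 0.05 and, on the left, an orange bar for the median of the expressed genes of its chromosome. Socs3 (0.56) is the only filled point, and Lifr (0.18) lies to the right of its chromosome's median of -0.25.

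The comparison of 20000 with 10000 cells asked whether input changed the level. The fold change of Ptpn11 was 0.35 ± 0.25 and that of Jak1 0.35 ± 0.29 (SE, log2). Those of Socs3 (0.28 ± 0.30), Il6st (0.13 ± 0.33), Stat3 (0.07 ± 0.19) and Lifr (-0.01 ± 0.26) were within or near their errors, and every adjusted p was 0.999 with edgeR's quasi-likelihood test. The log2 ratio was positive within both experiments for 4 genes, at 0.41 in experiment 1 and 0.33 in experiment 2 for Ptpn11, 0.32 and 0.28 for Socs3, 0.73 and 0.09 for Jak1, and 0.02 and 0.15 for Stat3. It changed sign for Lifr (0.47 and -0.39) and Il6st (-0.30 and 0.54). The share of all genes that were positive in both experiments is not given here, so these signs are not a result about the group. The 0.73 of Jak1 rests on its low library from 10000 cells of experiment 1. Of all 12523 genes, 0 passed with edgeR (0%) and 0 with DESeq2, and 101 had an unadjusted p under 0.05, none of them a member. With the experiment as a replicate block 4 genes passed (0.0319%), and no member was among them. The biological coefficient of variation without the block was 32%. With the block the errors of some members were smaller (SE of 0.18 for Socs3, 0.20 for Jak1 and 0.16 for Lifr), and every adjusted p of a member was 0.998. Equal levels are not shown by this.

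The rest of the pathway was followed through 68 genes in 6 lists, all of them in the count table, of which 56 were tested. Between experiments 4 rose and 5 fell, 16.1% of those tested, near the 12.5% of all genes tested, and between cell numbers 0 passed. Ligand transcripts were low. Lif itself ranged from 0 to 0.636 CPM, Cntf and Il27 were at 0 in all 5 libraries, and the only ligand tested, Ctf1 (cardiotrophin 1), was at 1.47 to 4.74 CPM and was not called. Of the 5 other receptors 3 were tested and none was called. Osmr, the alternative partner of gp130 for oncostatin M, was at 0 to 1.17 CPM and Il6ra, the chain that binds interleukin 6, at 0.147 to 0.835 CPM. All 14 inhibitors were tested and none passed, with a median log2 fold change of 0.02. Socs2, a relative of Socs3, was between 52.9 and 62.6 CPM. Of the 20 genes of the ERK and PI3K branch below SHP2, 18 were tested and none passed, with a median of -0.10.

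Among the 9 other kinases and STAT genes, all tested, 1 rose and 1 fell, where 5.75% of all genes tested rose and 6.76% fell. Stat5a, a STAT that carries prolactin and other cytokine signals, was at 6.05 and 5.29 CPM in experiment 1 from 10000 and 20000 cells and at 1.01, 0.709 and 1.08 CPM in experiment 2 from 5000, 10000 and 20000 cells. The experiments did not overlap. Its log2 fold change was -2.64 ± 0.49 (SE; adjusted p = 0.000645, edgeR's quasi-likelihood test). Stat4, a STAT known from interleukin 12 signalling, was at 2.48 and 5.22 CPM in experiment 1 and at 5.97, 8.90 and 7.34 CPM in experiment 2, again without overlap. Its log2 fold change was 1.07 ± 0.36 (SE; adjusted p = 0.0487, edgeR). That call was lost without the experiment 1 library from 10000 cells (0.64), without the experiment 2 library from 10000 cells (0.93), without that from 20000 cells (1.22), with library sizes alone (adjusted p = 0.0578), with DESeq2 (0.107) and with all 5 libraries (0.0756). Without the experiment 1 library from 20000 cells the fold change was 1.73. The call held with the cell number as a block (adjusted p = 0.0244, edgeR), with RLE size factors (0.0476) and with no filter on low counts (0.0203).

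Of 12 genes listed as STAT3 targets in embryonic stem cells 11 were tested, and between experiments 3 rose, 4 fell and 4 did not pass (Klf5, Tfcp2l1, Pim1 and Fos), with a median log2 fold change of -0.03. Of all genes tested 12.5% passed. In the fit limited to genes averaging 10 CPM or more, as 10 of the 12 did, 1432 of 6541 passed. The list was chosen with results of these data known. Myc, a transcription factor of growth, was at 55.2 and 44.6 CPM in experiment 1 and at 25.0, 26.7 and 23.9 CPM in experiment 2, without overlap. It fell by 0.98 ± 0.17 on the log2 scale (SE; adjusted p = 0.000258, edgeR's quasi-likelihood test). Junb, an AP-1 subunit, was at 41.4 and 44.1 CPM in experiment 1 and at 35.0, 24.1 and 28.7 CPM in experiment 2. It fell by 0.69 ± 0.17 (SE, log2; adjusted p = 0.00609, edgeR). Sgk1, a kinase, went the other way, from 80.2 and 79.0 CPM to 115, 118 and 109 CPM, and rose by 0.51 ± 0.13 (SE, log2; adjusted p = 0.00991, edgeR). Bcl3, a partner of NF-kappa-B, was at 85.5 and 98.8 CPM and then at 63.0, 60.7 and 66.7 CPM. It fell by 0.53 ± 0.14 (SE, log2; adjusted p = 0.0104, edgeR).

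The other 3 called targets were singled out after their values were seen. Pim3, a kinase, fell by 0.52 ± 0.14 (SE, log2; adjusted p = 0.0161, edgeR), the transcription factor Gbx2 rose by 0.51 ± 0.15 (adjusted p = 0.0300), and Klf4, the pluripotency factor, rose by 0.42 ± 0.13 (adjusted p = 0.0381). Klf4 was at 65.1 and 67.2 CPM in experiment 1 and at 71.1, 83.7 and 93.4 CPM in experiment 2, with no overlap. Leaving out the experiment 1 library from 10000 cells ended the calls of Gbx2 (0.40), Klf4 (0.40) and Sgk1 (0.52). Leaving out the experiment 2 library from 10000 cells ended those of Bcl3 (-0.46), Gbx2 (0.59), Junb (-0.57), Klf4 (0.50), Pim3 (-0.55) and Sgk1 (0.46). Without the experiment 1 library from 20000 cells those of Bcl3 (-0.41), Klf4 (0.46) and Pim3 (-0.40) were lost, and without the experiment 2 library from 20000 cells those of Gbx2 (0.44), Klf4 (0.35) and Pim3 (-0.47). With all 5 libraries Junb (adjusted p = 0.0617) and Klf4 (0.0802) did not pass, whereas Myc and Stat5a passed under every alternative that gave a value. Myc and Pim3 lie on chromosome 15, whose median was -0.25, and the part of the chromosome and of the marker sums given above in these changes was not tested.

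**Figure D3:**
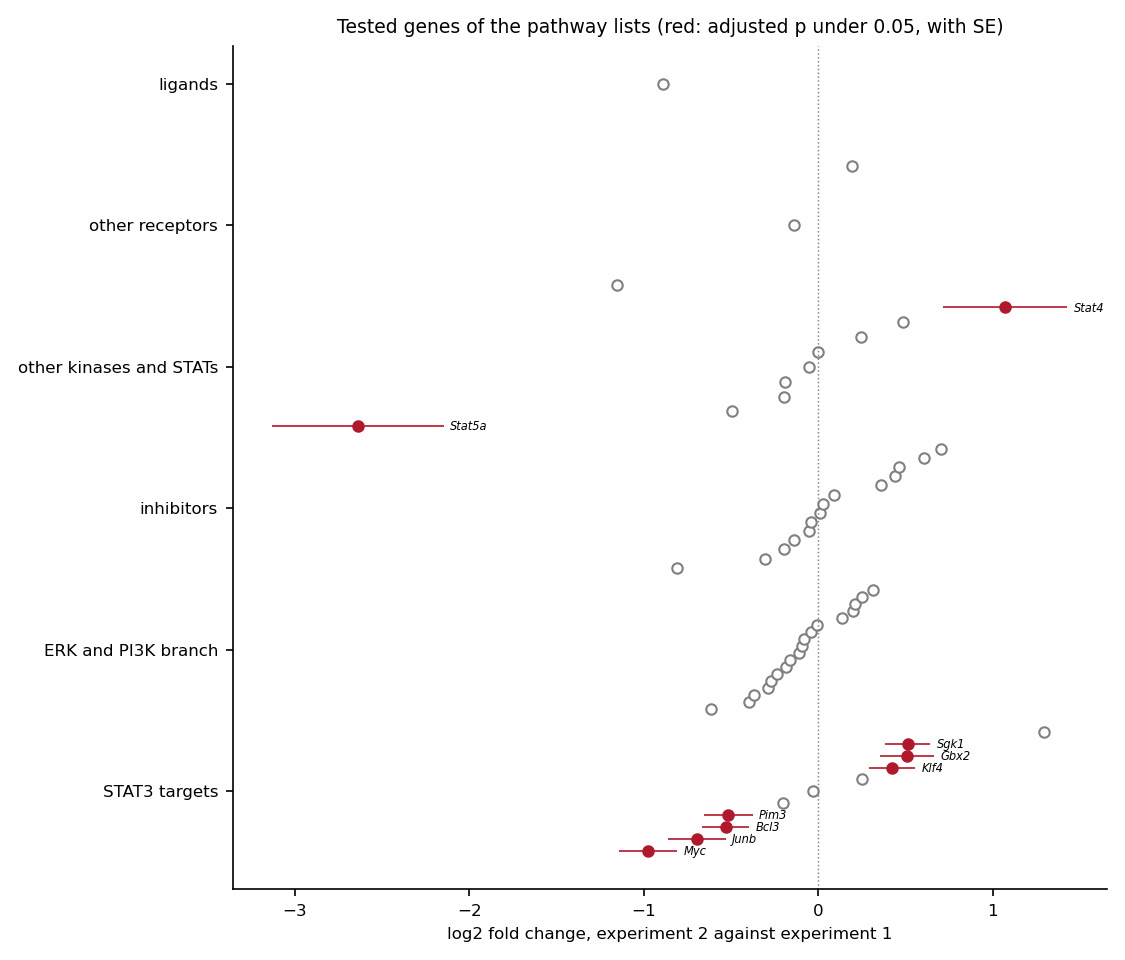
Log2 fold change of experiment 2 against experiment 1 for the 56 tested genes of the 6 pathway lists, in red with SE where the adjusted p was under 0.05. The red points are Stat5a (-2.64) and Stat4 (1.07) among the kinases and STATs and 7 STAT3 targets from -0.98 (Myc) to 0.51 (Sgk1 and Gbx2), and none in the other 4 lists.

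The genes whose levels followed each member most closely over the 5 libraries were found as the root mean square difference of centred log2(CPM + 0.5) among genes averaging 10 CPM or more. For Socs3 these were Bcar1 (0.0187), Sipa1l1 (0.0264) and Akap7 (0.0303), where the median over all genes was 0.345. For Lifr they were Ufd1 (0.0387), Birc2 (0.0507) and Arl14ep (0.0555), and for Il6st Rcan3 (0.0362), Srrm2 (0.0448) and Slc27a4 (0.0544). For Stat3 they were Rnf114 (0.0189), Trmt10b (0.0194) and Zmiz2 (0.0197), where the median was 0.190. Prr14l (0.0518), Rtf1 (0.0529) and Ticrr (0.0577) were nearest to Jak1, and Tor1b (0.0449) and Gtpbp1 (0.0482) were near to Ptpn11. With 5 libraries and 6485 candidates these names are a description of the libraries.

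At the chromatin level, open DNA was recorded at the promoters of all 6 genes, and at Il6st, Stat3, Socs3 and Jak1 in all 8 lists. A promoter peak is an interval within 1000 bp of the gene's 5′ end in the count table. At Lifr it was missing only from Omni-ATAC of 5000 cells, and at Ptpn11 from that list and from the low-input list of 5000 cells, the shortest lists of the 8. Among all 24470 genes 14.8% had a promoter peak in all 8 lists, and among the 6485 genes averaging 10 CPM or more 32.2% did, against 4 of these 6.

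By list, the low-input data of experiment 1 had a promoter peak at 6 of 6 genes from 10000 cells (31.1% of all genes and 61.7% of those averaging 10 CPM or more) and at 6 of 6 from 20000 cells (37.4% and 71.2%). Experiment 2 had one at 5 of 6 from 5000 cells (31.1% and 62.7%), 6 of 6 from 10000 cells (40.5% and 76.9%) and 6 of 6 from 20000 cells (50.3% and 88.8%). Omni-ATAC had one at 4 of 6 from 5000 cells (18.6% and 38.8%), 6 of 6 from 10000 cells (41.5% and 75.9%) and 6 of 6 from 50000 cells (61.1% and 95.7%). The shares were lowest in the shortest list and highest in the longest, and the counts short of 6 were those of the lists from 5000 cells.

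The width of these peaks varied between genes and lists. The Stat3 promoter was covered over 367 to 505 bp in the 5 low-input lists, and over 80, 372 and 616 bp in the Omni-ATAC lists of 5000, 10000 and 50000 cells. The Socs3 promoter was covered over 94 and 440 bp in the low-input lists of experiment 1, over 440, 432 and 550 bp in those of experiment 2, and over 87, 336 and 744 bp in the Omni-ATAC lists. At Lifr the cover was 9 to 24 bp in 4 of the 5 low-input lists and 409 bp in the fifth, from 20000 cells of experiment 2. Omni-ATAC gave 0, 210 and 1140 bp there. Lifr thus reached 210 bp or more only in the 3 longest lists, while Stat3 and Socs3 did so in most.

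Jak1 was covered over 35 and 164 bp in the low-input lists of experiment 1 from 10000 and 20000 cells, over 9, 24 and 776 bp in those of experiment 2, and over 16, 185 and 1011 bp in the Omni-ATAC lists. Il6st had 9 to 130 bp in the low-input lists and 9, 64 and 233 bp in Omni-ATAC, and in the longest list it was the least covered of the 6. Ptpn11 had 152 and 154 bp in the low-input lists of experiment 1, 0, 216 and 226 bp in those of experiment 2, and 0, 19 and 591 bp in Omni-ATAC. The lists give no height, and their shortest interval is 9 bp, so a 9 bp peak, as at Jak1 in the list from 5000 cells, is the least that a list can record. With only intervals of at least 50 bp, 3 of the 6 genes kept a promoter peak in the low-input lists of experiment 1 from 10000 cells and of experiment 2 from 5000 and 10000 cells, and 2 in Omni-ATAC of 5000 cells. Of all genes 16.1%, 16.6%, 26.0% and 5.97% had one in these 4 lists under the same limit.

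**Figure D4:**
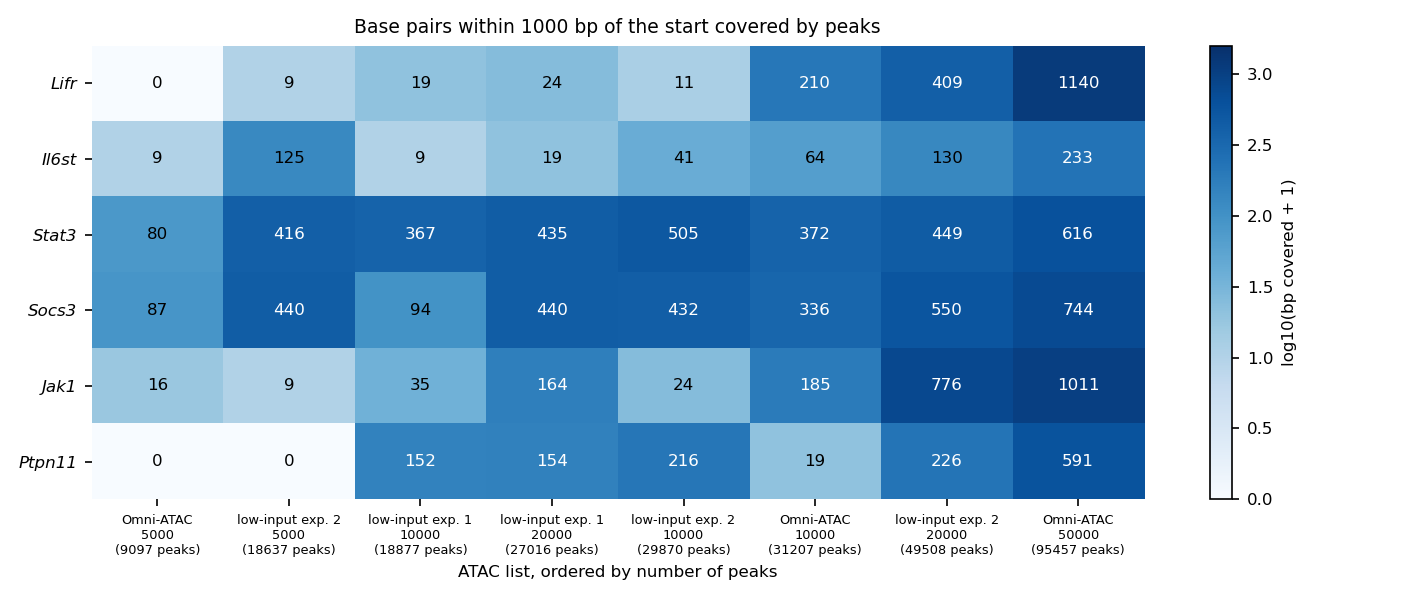
Base pairs within 1000 bp of each start that peaks covered (number in the cell; colour on a log10(bp + 1) scale) in the 8 lists, ordered by number of peaks. Stat3 has at least 80 bp in every list, Lifr runs from 0 to 1140 bp, and Ptpn11 is at 0 in the 2 shortest lists.

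The printed Socs3 match TTCTTAGAA lies at chr11:117969512-117969520 and was inside a peak in 6 of the 8 lists. The exceptions were the low-input list of experiment 1 from 10000 cells and Omni-ATAC of 5000 cells, in which peaks covered 0 and 9 of the 250 bases shown. In the other 6 lists peaks covered 212 to 250 of them. Of the Lifr window shown, peaks covered 4 bp in 4 low-input lists and 208 bp in the low-input list of experiment 2 from 20000 cells. RefSeq also gives Lifr a start at 7090610, upstream of the start used here, and no list had a peak within 1000 bp of it.

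**Figure D5:**
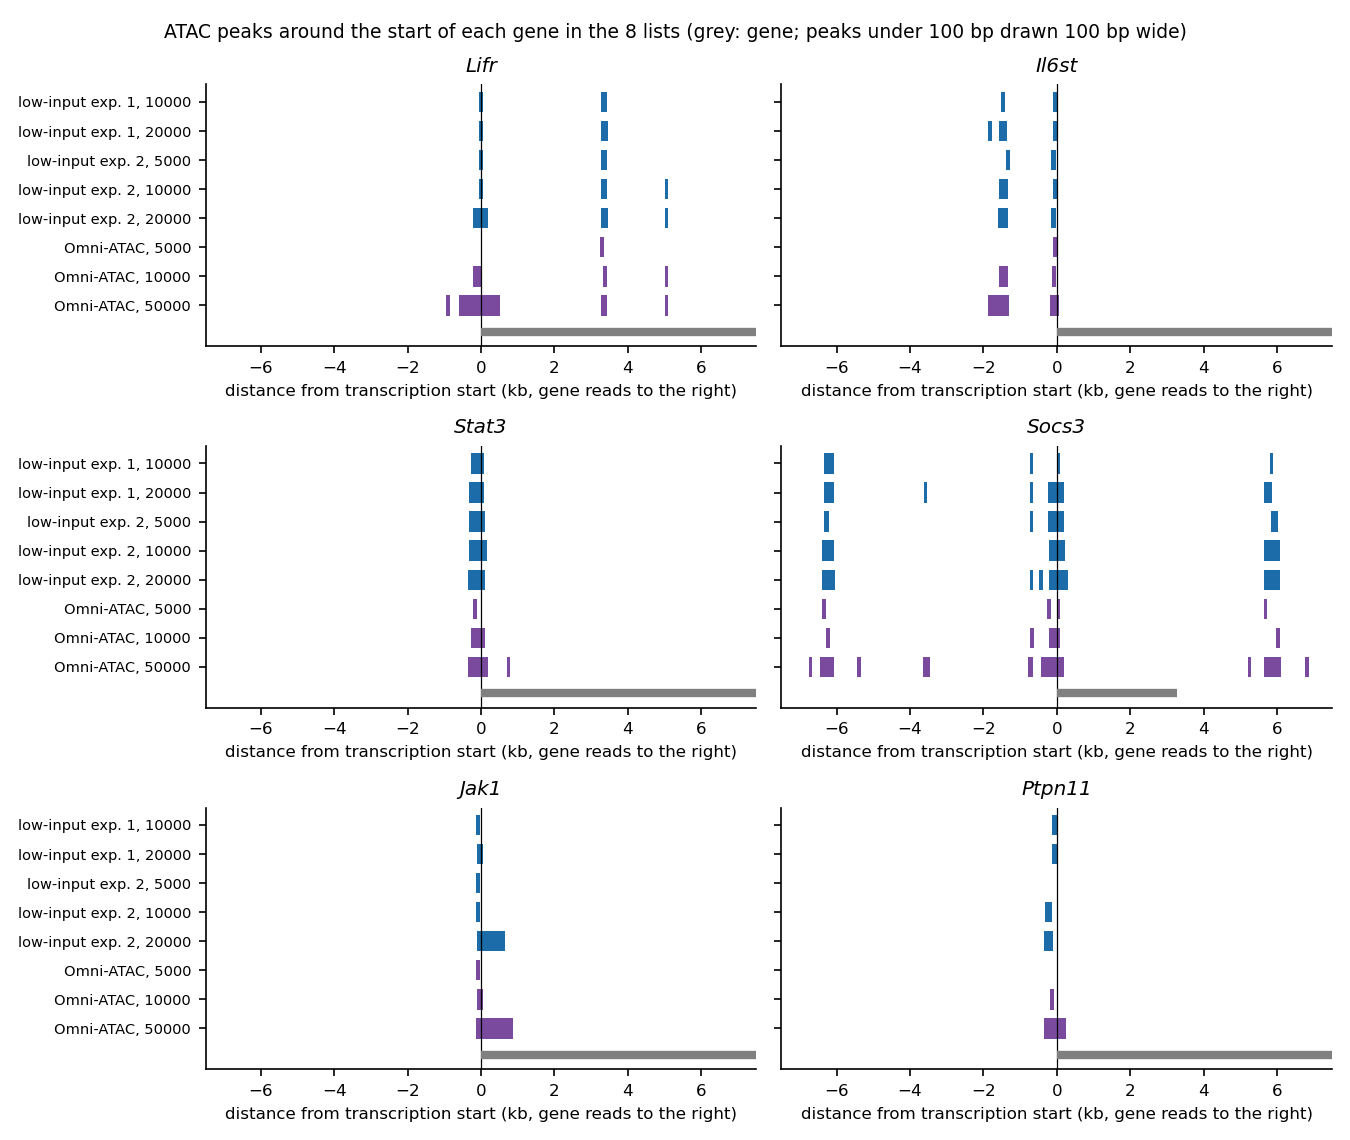
Peaks of the 8 lists within 7.5 kb of each start, drawn by distance from the start with the gene reading to the right (grey bar), low-input lists in blue and Omni-ATAC in purple, and peaks under 100 bp drawn 100 bp wide. Beyond the promoters, columns of peaks shared by all 8 lists stand at 3.36 kb inside Lifr, at 6.23 kb before Socs3 and at 5.87 kb past its start.

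Away from the promoters the peaks of the 8 lists were merged into sites within 10000 bp of each gene, with gaps of up to 200 bp closed. This gave 29 sites, 9 at promoters, 7 in gene bodies and 13 in the flanks, of which 7 were in all 8 lists and 11 only in Omni-ATAC of 50000 cells. Whether a site is exonic or intronic is not given, since exon positions were not used here. Of the sites outside promoters, 3 were in all 8 lists. The first lies inside Lifr, 3.36 kb from the start (chr15:7132835-7133023), with peaks of 73 to 184 bp. It was present even in Omni-ATAC of 5000 cells, in which the Lifr promoter had no peak. The others flank Socs3, 6.23 kb upstream (chr11:117975398-117975816) and 5.87 kb past the start beyond the gene's 3′ end (chr11:117963265-117963725). Their peaks were 9 to 376 bp and 9 to 461 bp wide, and at both the short peaks of Omni-ATAC of 5000 and 10000 cells did not overlap each other and belong to 1 site only through merging. Of the 10687 regions of the deposited unified list away from any start 18.6% were met in all 8 lists, and of the 7623 near a start 38.2%.

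Other sites were shared by fewer lists. A site 1.46 kb upstream of Il6st (chr13:112462193-112462756) was in 7 lists and missing only from Omni-ATAC of 5000 cells. Inside Lifr, sites at 5.06 kb (chr15:7134625-7134638) and 38.48 kb (chr15:7167814-7168131) were each in 4 lists, 2 low-input and 2 Omni-ATAC, and neither overlapped the unified list. The Jak1 body held 1 site, 97 kb from the start (chr4:101168280-101168430), in 4 lists that included the shortest. Its peak in Omni-ATAC of 50000 cells (136 bp) overlapped none of the others, each of 9 bp, and shares the site only through merging. Stat3 had a site 45.91 kb into the gene (chr11:100893530-100893739) in 3 lists, and Il6st had 1 at 22.8 kb (chr13:112486838-112486902) in Omni-ATAC of 50000 cells only. At the sites 1.46 kb upstream of Il6st, 45.91 kb into Stat3 and 38.48 kb into Lifr, some peaks of shorter lists did not overlap each other. The wider peak of Omni-ATAC of 50000 cells spanned them. No peak lay inside Ptpn11 or Socs3 beyond the promoter. Socs3 had the most sites, 9, although its gene is the shortest of the 6, and Ptpn11 the fewest, 2. Seen only in Omni-ATAC of 50000 cells were 4 of the 9 at Socs3, 3 of 5 at Stat3 and 2 of 4 at Jak1. At Lifr it was 1 of 5, at Il6st 1 of 4 and at Ptpn11 0 of 2.

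Peaks inside the 6 gene bodies numbered 1 and 3 in the low-input lists of experiment 1 from 10000 and 20000 cells, 1, 2 and 5 in those of experiment 2 from 5000, 10000 and 20000 cells, and 2, 4 and 7 in Omni-ATAC of 5000, 10000 and 50000 cells. They lay in 1, 2, 1, 1, 3, 2, 2 and 4 of the 6 genes, in the same order of lists, and of all genes 13.9%, 18.9%, 14.0%, 21.1%, 30.6%, 6.86%, 21.3% and 43.2% had a body peak. Lifr supplied 16 of these 25 peaks, in every list at least 1.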

How the data were processed

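The authors deposited whole-number counts per gene for 5 mRNA libraries in 1 table with mm10 coordinates, and no value column of it was left unmapped (0 columns). ATAC peaks were deposited by the authors as intervals with no height, score or p-value, 1 list for each of 8 libraries and a unified list. The submitters' processing notes name cutadapt, Bowtie2 2.1.0, SAMtools 1.3.1, Picard, bedtools 2.24.0, MACS2 2.1.1, STAR 2.5, featureCounts and Subread 1.5.0-p1, without roles or settings. Use of strand and the peak threshold are not given in the sources used here.

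CPM were computed from library totals, with 95% Wilson intervals that cover counting error only, since these reads carry no molecular identifiers. No library was a duplicate of another (lowest chi-square per gene of a pair 10.7). Tests used edgeR 4.0.16 (R 4.3.3; TMM, filterByExpr, glmQLFit and glmQLFTest, no block) on the 4 libraries from 10000 and 20000 cells over all genes, with p adjusted after Benjamini and Hochberg and called under 0.05, and the steps were tested on simulated data. The library from 5000 cells, with no partner in experiment 1, entered only the alternative with all 5 libraries. The titles give an experiment number, and the series' design text puts the experiments on different days, so the number pairs libraries, and the differences between experiments at both cell numbers correlated across 11512 genes with r = 0.562. Alternatives were RLE size factors, library sizes alone, DESeq2 1.42.0, other filters, a block, leaving out libraries, and other peak and start definitions. The block was the cell number in the comparison of experiments and the experiment in that of cell numbers. Promoters were matched in RefSeq by symbol (6 of 6), and gene IDs for 24467 of 24470 genes. Peaks and motifs were handled with Python 3.11.15, numpy 2.4.6 and pandas 2.3.3.

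The members and the lists were chosen with earlier results of these data known. All 6 members are named with every value. The rule names at most 4 called genes of each list, by smallest adjusted p, and Pim3, Gbx2, Klf4 and the uncalled or marker genes given as examples were named after their values were seen. For likeness the 3 nearest genes are named for each member, except that 1 of those of Ptpn11 is not reported here.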

Additional observations from a re-analysis of the deposited data

Results flagged for a closer look

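For 3 of the genes the difference between experiments ran in opposite directions at the 2 cell numbers. The log2 ratio of CPM of experiment 2 over experiment 1 was 0.62 at 10000 cells and -0.25 at 20000 cells for Lifr. For Il6st it was -0.27 at 10000 cells and 0.57 at 20000 cells. For Stat3 it was -0.11 and 0.017, the smallest ratios of the 3. Each ratio rests on 1 library per experiment, and the difference between cell numbers was not tested. For Stat3 the counting intervals of the experiments overlapped at both cell numbers. The share of all genes that change sign in this way is not given here.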

How the results depend on the processing

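Leaving out each library in turn, with the lone library of a group assumed to vary like the others, moved the count of genes called between experiments over 803 to 1817, and the other alternatives, the replicate block included, kept it within 1.5 times of 1567 (1765 with the block). Between cell numbers 2 genes passed with no filter on low counts and 4 with the replicate block, which changed the call of no member and, between experiments, of none of the 9 called pathway genes. The fold change of Lifr between cell numbers was 0.0106 with library sizes alone and 0.0138 with the replicate block, against -0.0073. Leaving out 1 library turned the sign of some fold changes that did not pass. Between experiments these ran from -0.037 to 0.45 for Lifr, -0.11 to 0.42 for Il6st, -0.11 to 0.034 for Stat3 and -0.25 to 0.18 for Ptpn11, and between cell numbers from -0.28 to 0.36 for Lifr, -0.18 to 0.39 for Il6st and -0.0097 to 0.62 for Socs3. That of Jak1 between cell numbers kept its sign and ran from 0.046 without the experiment 1 library from 10000 cells to 0.76 without the experiment 2 library from 10000 cells. The fold change of Socs3 between experiments ran from 0.55 to 0.60 over 7 alternatives with adjusted p from 0.0234 to 0.0764, and from 0.41 to 0.75 when a library was left out, and the cause of the lost calls was not tested. Il6st has no value with a minimum mean of 10 CPM, which it does not reach.

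With peaks of at least 50 bp the members with a promoter peak were 3 in the low-input lists of experiment 1 from 10000 cells and of experiment 2 from 5000 and 10000 cells, and 2 in Omni-ATAC of 5000 cells (16.1%, 16.6%, 26.0% and 5.97% of all genes). With the 9097 widest peaks of each list they were 3 in the lists of experiment 2 from 5000 and 10000 cells (20.5% and 20.9% of all genes). The other 42 of 48 such counts stayed within 1.5 times. Peaks in gene bodies with 10000 bp added on each side numbered 4 and 8 in experiment 1 from 10000 and 20000 cells, 4, 5 and 9 in experiment 2 from 5000, 10000 and 20000 cells, and 4, 9 and 20 in Omni-ATAC of 5000, 10000 and 50000 cells. With peaks of at least 50 bp they were 1 in the lists from 20000 cells of experiment 1, from 10000 cells of experiment 2 and in Omni-ATAC of 5000 and 10000 cells, and 2 in that from 20000 cells of experiment 2. Among peaks that overlap the unified list they were 1 in each of these 5 lists and in Omni-ATAC of 50000 cells. Fewer intervals or a wider region were counted in these settings by construction. Il6st had as few as 113 counts in a library, the fewest of the 6 members.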
